A study of Mus musculus with 11 samples.

Results

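Chemokine receptors are membrane proteins that read gradients of chemokines, small secreted proteins that direct the movement of cells. Of the 32285 genes of the deposited matrices, 8 such receptors were followed, namely Ccr1, Ccr2, Ccr7, Cxcr2, Cxcr3, Cxcr4, Cxcr6 and Ackr3. They were taken by gene name, and all 8 were detected, with between 1373 (Cxcr3) and 30396 (Ackr3) UMIs over the cells of named types.

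CCR1 binds CCL3, CCL5 and related inflammatory chemokines, CCR2 binds CCL2, and CXCR2 binds CXCL1 and CXCL2 and draws neutrophils into injured tissue. CCR7 binds CCL19 and CCL21 and guides naive and central memory T cells, B cells and mature dendritic cells to lymph nodes. CXCR3 binds CXCL9 and CXCL10, and CXCR6 binds CXCL16. Both are receptors of activated and resident T cells. CXCR4 and ACKR3 share the ligand CXCL12, which retains leukocytes and guides vessel growth. CXCR4 signals through G proteins, while ACKR3 is an atypical receptor that takes up CXCL12 and removes it. In the stroke brain such receptors are best known from the entry of monocytes, neutrophils and T cells through inflamed vessels.

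In the GENCODE M21 annotation of GRCm38, Ackr3 (ENSMUSG00000044337) lies at chr1:90203980-90216751 on the plus strand, Cxcr2 (ENSMUSG00000026180) at chr1:74153989-74161246 on the plus strand and Cxcr4 (ENSMUSG00000045382) at chr1:128588199-128592293 on the minus strand. Ccr7 (ENSMUSG00000037944) lies at chr11:99144196-99155077 and Cxcr3 (ENSMUSG00000050232) at chrX:101731535-101734269, both on the minus strand. The other three share a stretch of 307083 bases on chromosome 9, with Cxcr6 (ENSMUSG00000048521) at chr9:123806475-123811760 on the plus strand, Ccr1 (ENSMUSG00000025804) at chr9:123962124-123968692 on the minus strand and Ccr2 (ENSMUSG00000049103) at chr9:124101950-124113557 on the plus strand.

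The data were single-cell RNA sequencing libraries of the right brain, 1 library per mouse, from C57BL/6 wild-type (WT) mice, young adult males of a substrain that is not given, and from Lrg1-/- mice, a conventional deletion present in every cell. The methods name both C57BL/6N and C57BL/6 J for the Lrg1-/- strain, which was crossed back to C57BL/6N, and give these mice a greater age than the wild-type mice, so that substrain and age cannot be told apart from genotype. The mice had sham surgery or middle cerebral artery occlusion/reperfusion (MCAO/R), a stroke model in which a filament blocks the artery and blood flow is then restored. The sham + WT group had 3 libraries (replicates 1, 2 and 3) and the sham + Lrg1-/- group 3 (replicates 1, 2 and 5), and after MCAO/R there were 2 WT libraries, numbered 1 and 2, and 3 Lrg1-/- libraries, numbered 1, 2 and 5.

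The libraries held between 5650 and 36858 barcodes and between 37159497 and 171813031 UMIs (unique molecular identifiers, each standing for a captured mRNA molecule). After filters and doublet removal 125927 cells were left, of which 95769 fell into 20 named cell types. The other 30158 were left unnamed, 16662 of them in MCAO/R + Lrg1-/- replicate 5. Lrg1 itself had 0 UMIs in all 6 Lrg1-/- libraries, between 1.73 and 5.74 UMIs per 1e+06 UMIs (CPM) in the sham + WT libraries and 138 and 124 in the MCAO/R + WT libraries. Haemoglobin transcripts took 4.35% of all UMIs or more in the Lrg1-/- libraries and 0.0236% to 0.0451% in the WT libraries. No pair of libraries shared more than 1.15% of the smaller library's barcodes. Clusters followed surgery in some types. Cluster 2 held 90.0% of the microglia of sham + WT mice and 77.9% of those of sham + Lrg1-/- mice, while cluster 1 held 82.8% and 97.2% of those of the MCAO/R + WT and MCAO/R + Lrg1-/- groups. Among endothelial cells, cluster 7 held 84.9% and 75.4% in the corresponding sham groups and cluster 5 held 93.8% and 94.9% after MCAO/R. Each comparison of sham with MCAO/R in these types was therefore also one between clusters. Clusters were split again (c2.0 is part 0 of cluster 2), and several of the parts followed genotype. The largest part of the sham microglia was c2.0 in WT mice (48.7%) and c2.2 in Lrg1-/- mice (61.0%), and that of the MCAO/R microglia was c1.1 (56.4%) and c1.0 (51.7%). Their part in the results was not tested.

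The 8 receptors differed in their distribution over the cell types, and several were high in the same type. Levels of a cell type are CPM within that type, that is, UMIs of the gene per 1e+06 UMIs of the type in a library, averaged over libraries with at least 20 cells of the type and given with the SD. Cells of a type were pooled over all groups in this description, and no test was made of it. Neighbours in an order of cell types were read as separate where the gap between their means exceeded the sum of their SDs.

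**Figure D1:**
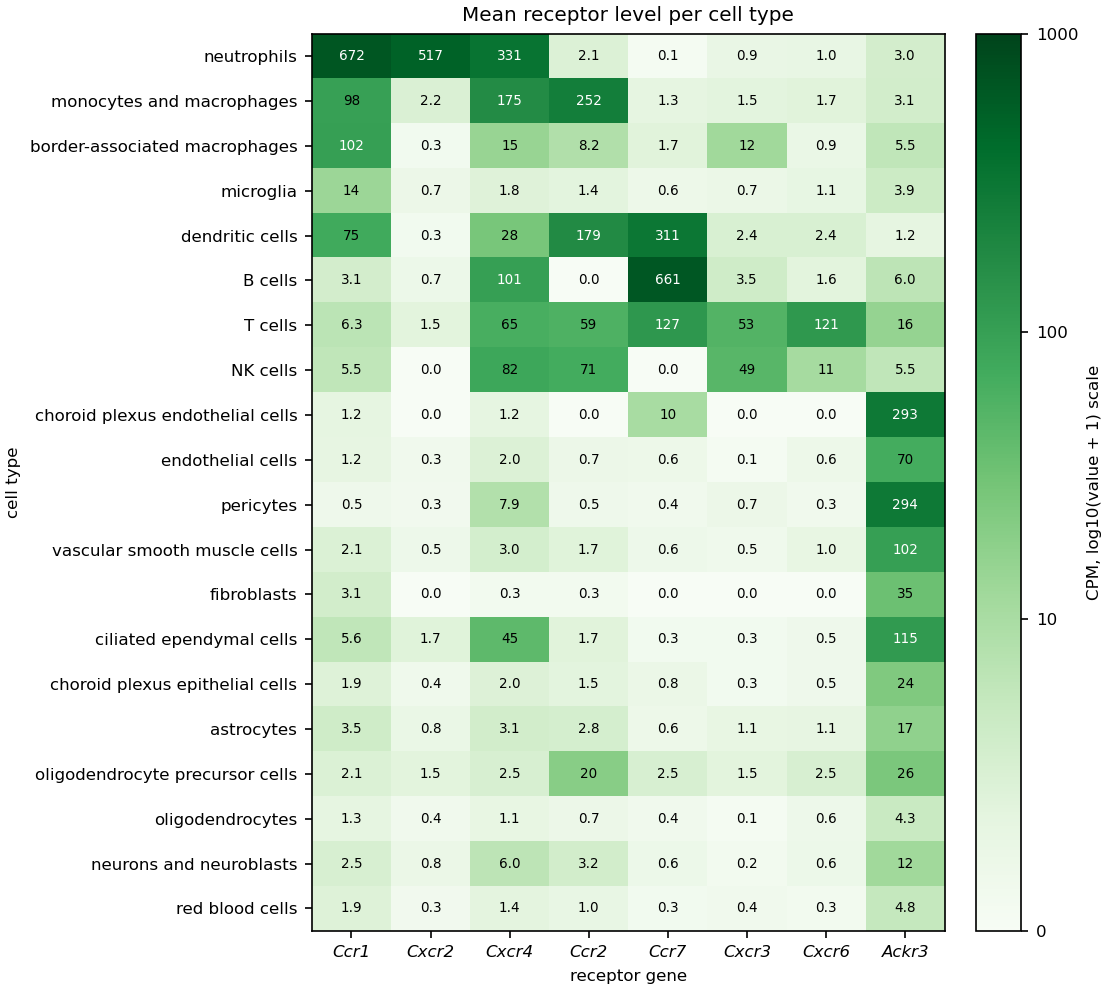
Mean level of each receptor gene (columns) in each named cell type (rows), in CPM, averaged over libraries with at least 20 cells of the type; the colour follows log10(value + 1). Cxcr2 stood at 517 in neutrophils and at 2.22 in the next type, whereas Ackr3 was spread over pericytes, endothelial, smooth muscle and ependymal cells.

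Cxcr2 and Ccr1 were highest in neutrophils. Cxcr2 reached 517 ± 219 CPM there (SD, n = 4 libraries) and 2.22 ± 2.76 in monocytes and macrophages, the next type, a gap of 2.32 times the summed SDs. Ccr1 reached 672 ± 297 in neutrophils (n = 4), followed by border-associated macrophages with 102 ± 35.3 (n = 11), monocytes and macrophages with 97.5 ± 74.0 (n = 9), dendritic cells with 74.7 ± 20.6 (n = 2) and microglia with 13.8 ± 10.1 (n = 11). Neutrophils stood apart by 1.72 times the summed SDs, and the border-associated macrophages, monocytes and dendritic cells were closer than their summed SDs. Both dendritic cell libraries and all 4 neutrophil libraries came from MCAO/R mice, and the spread of the monocytes held the difference between sham and MCAO/R given below. Ccr1 had a UMI in 86.5% of neutrophils on average and Cxcr2 in 77.5%, or in 51.3% and 37.5% once each cell was thinned to 1000 UMIs.

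Ccr2 had its highest mean in monocytes and macrophages, at 252 ± 80.6 CPM (n = 9). Dendritic cells followed at 179 ± 26.4 (n = 2), which was within the summed SDs of the monocytes, then NK cells at 71.1 (n = 1), T cells at 58.8 ± 38.5 (n = 10), oligodendrocyte precursor cells at 20.2 ± 35.0 (n = 3, from 8 UMIs in 2 cells) and border-associated macrophages at 8.19 ± 11.9. A Ccr2 UMI was found in 57.6% of monocytes and macrophages and in 67.6% of dendritic cells, or in 14.2% and 11.9% after thinning.

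Ccr7, Cxcr3 and Cxcr6 had their highest means in lymphocytes. Ccr7 was highest in B cells, at 661 ± 334 (n = 6), followed by dendritic cells at 311 ± 15.2 (n = 2) and T cells at 127 ± 128 (n = 10). The first step was close to the summed SDs and rested on the libraries entered. Both dendritic cell libraries came from MCAO/R + Lrg1-/- mice (322 and 301), whose B cells stood at 335 and 273, while the B cells of sham + WT mice stood at 794 to 1158. Cxcr6 stood at 121 ± 62.2 in T cells and at 10.9 in the single library with enough NK cells. Cxcr3 stood at 53.4 ± 21.8 in T cells, at 49.2 in NK cells (n = 1) and between 2.32 and 23.4 in border-associated macrophages. A Cxcr6 UMI was found in 38.2% of T cells, a Cxcr3 UMI in 31.0% and a Ccr7 UMI in 84.0% of B cells, and these shares were 14.1%, 5.71% and 48.2% after thinning.

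Cxcr4 and Ackr3 were the widely distributed receptors. Cxcr4 ran from neutrophils (331 ± 150, n = 4) over monocytes and macrophages (175 ± 95.5), B cells (101 ± 13.8), NK cells (82.0, n = 1), T cells (65.2 ± 26.8) and ciliated ependymal cells (45.0 ± 14.7) to dendritic cells (27.7 ± 29.1) and border-associated macrophages (14.8 ± 14.5). In this order, all neighbours with an SD were closer than their summed SDs, so no step was read as separate. Ackr3 was highest in pericytes (294 ± 183, n = 9) and choroid plexus endothelial cells (293 ± 44.1, n = 3), followed by ciliated ependymal cells (115 ± 66.8, n = 11), vascular smooth muscle cells (102 ± 46.7), endothelial cells (70.0 ± 27.5), fibroblasts (34.6 ± 15.6, n = 5), oligodendrocyte precursor cells (26.4, n = 3) and choroid plexus epithelial cells (24.4 ± 9.68). The 3 libraries of choroid plexus endothelial cells were all from sham + WT mice and ran from 263 to 344, where the pericytes of the same mice ran from 482 to 610. Ciliated ependymal cells, vascular smooth muscle cells and endothelial cells overlapped each other in spread. An Ackr3 UMI was found in 43.7% of pericytes, and in 20.5% after thinning.

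Droplets also capture free RNA, so oligodendrocytes were read as the background, on the assumption that they do not carry the receptors. This assumption was not tested for any receptor, Cxcr2, Cxcr4 and Ackr3 included. The background, here and below, may therefore include transcripts of the oligodendrocytes themselves. There a UMI was found in 0.947% of cells for Ccr1, 0.539% for Ccr2, 0.293% for Ccr7, 0.307% for Cxcr2, 0.111% for Cxcr3, 0.978% for Cxcr4, 0.495% for Cxcr6 and 4.09% for Ackr3. The median depth per library was 3409 to 15715.5 UMIs per oligodendrocyte, against 3144 to 5392 in neutrophils, 6903.5 to 13914 in monocytes and macrophages, 5787 to 10695 in T cells, 4062 to 5841 in B cells and 3402.5 to 5517 in pericytes. Every share named above exceeded this background by far, at depths within or below the range of the oligodendrocytes.

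For each receptor, the 3 genes whose profile over the 20 cell types was most alike were taken by Pearson's r of log2(mean level + 1), as a description over 20 types that share libraries. Ccr1 was followed by Adam8 (r = 0.949), Lrrc25 (0.942) and Nfam1 (0.940), and Cxcr2 by Cstdc4 (0.978), Mirt2 (0.978) and the neutrophil surface marker Ly6g (0.971). Ccr2 was followed by Itgax (0.861), Dok2 (0.857) and S100a4 (0.853), and Cxcr4 by Pstpip1 (0.925), Mirt1 (0.885) and 4833407H14Rik (0.884). Ccr7 was followed by the inhibitory receptor Btla (0.948), H2-DMb2 (0.914) and H2-Ob (0.901), Cxcr3 by the checkpoint gene Ctla4 (0.906), the co-stimulatory receptor Cd28 (0.898) and Txk (0.896), and Cxcr6 by the checkpoint gene Pdcd1 (0.937), the T cell receptor adaptor Lat (0.936) and Ctla4 (0.935). Ackr3 was followed by Prss23 (0.921), Lmcd1 (0.919) and Emp2 (0.918). Ly6g, S100a4 and Cd28 were also used to name the cell types. Among the 8 receptors themselves, Cxcr3 and Cxcr6 were the pair most alike (r = 0.85).

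For comparisons between groups, UMIs were summed per library and cell type and tested with the quasi-likelihood method of edgeR over all genes of the type. A call required a Benjamini-Hochberg adjusted p of less than 0.05 together with a log2 fold change beyond 0.36 in either direction. Of the 160 pairs of a receptor and a cell type, 58 had enough counts to be tested in at least 1 comparison, and the others stayed under the filter on low counts or in types with too few libraries. A call was made for 28 pairs. The comparisons share groups with each other and are not independent.

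After MCAO/R, the Lrg1-/- group differed from the WT group in 15 of 48 pairs tested (31.2%), 13 higher and 2 lower, with at least 1 call for each of the 8 receptors. Over all genes in the same types, 16.1% were called, 8.46% higher and 7.62% lower. With clusters made without balancing over libraries it was 8 of 45 pairs (17.8%), beside 16.9% of all genes. With cells thinned to 1000 UMIs it was 1 of 15 (6.67%), beside 11.0%. The median log2 fold change over the 48 pairs was 1.05, and over all genes tested it was 0.02. MCAO/R against sham in the WT mice gave 9 of 46 pairs (19.6%), 4 higher and 5 lower, beside 9.48% of all genes, 4.81% higher and 4.67% lower. The same surgery in the Lrg1-/- mice gave 9 of 54 (16.7%), 6 higher and 3 lower, beside 10.1%, 5.37% higher and 4.73% lower. Without sham + Lrg1-/- replicate 1 or 2 or MCAO/R + Lrg1-/- replicate 2 it gave 3, 2 and 3 calls, a smaller share than that of all genes. Between the sham groups, 6 of 54 pairs were called (11.1%), 2 higher and 4 lower in the Lrg1-/- group, beside 11.4%, 5.76% higher and 5.62% lower. In this fit the share among the receptors was about that of all genes in the sham comparison. The test of whether the effect of surgery differed between the genotypes called 3 of 45 pairs (6.67%), all higher, beside 1.92% of all genes, 1.08% higher and 0.839% lower.

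Ackr3 in pericytes, the mural cells of brain capillaries, was lower after MCAO/R in WT mice and lower in sham + Lrg1-/- mice. It stood at 482, 485 and 610 CPM in the sham + WT libraries, at 192 and 98.8 in sham + Lrg1-/- replicates 1 and 2, at 240 and 235 in the MCAO/R + WT libraries and at 158 and 144 in MCAO/R + Lrg1-/- replicates 2 and 5. The sham + WT libraries lay above every other library, and the remaining groups overlapped or lay close to each other. The log2 fold change was -1.14 ± 0.19 (SE) for MCAO/R against sham in WT mice (adjusted p = 6.56e-04, edgeR's quasi-likelihood test with Benjamini-Hochberg adjustment) and -1.82 ± 0.25 for Lrg1-/- against WT in sham mice (adjusted p = 2.99e-04). Both calls held under every alternative run, 22 for the former and 21 for the latter. The sham + Lrg1-/- libraries entered held only 34 and 27 pericytes, under the alternative minimum of 50 cells. Leaving out 1 library of the sham + Lrg1-/- or the MCAO/R + WT group left 1 in that group. Between the Lrg1-/- groups the change was 0.16 (adjusted p = 0.872), but the test of a difference between the genotypes in the effect of surgery did not pass (1.29, adjusted p = 0.134). In the same pericytes the summed microglial markers ran from 366 to 476 CPM in sham + WT mice, from 811 to 1007 in sham + Lrg1-/- mice, from 218 to 276 in MCAO/R + WT mice and from 477 to 787 in MCAO/R + Lrg1-/- mice. Different clusters held most pericytes of the genotypes, c11.0 in sham + WT (77.4%) and MCAO/R + WT mice (83.2%) and c11.3 in sham + Lrg1-/- (70.1%) and MCAO/R + Lrg1-/- mice (66.7%). The part of the markers and of the clusters in the genotype difference was not tested.

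In endothelial cells, Ackr3 was lower after MCAO/R and lower again in the Lrg1-/- mice. The levels were 98.8, 124 and 96.8 CPM in sham + WT mice, 60.9, 68.8 and 53.3 in sham + Lrg1-/- mice, 67.0 and 75.9 in MCAO/R + WT mice and 31.1, 53.2 and 40.1 in MCAO/R + Lrg1-/- mice. The Lrg1-/- libraries lay below the WT libraries without overlap after each kind of surgery. The genotype difference was -0.76 ± 0.18 in sham mice (log2, adjusted p = 0.0114) and -0.76 ± 0.20 after MCAO/R (adjusted p = 0.0115), and the difference between these was -0.01 (adjusted p = 0.996). The change with surgery was -0.57 ± 0.19 in WT mice (adjusted p = 0.0488) and -0.58 ± 0.18 in Lrg1-/- mice (adjusted p = 0.0362). The genotype call in sham mice was lost without sham + Lrg1-/- replicate 5 (-0.70, adjusted p = 0.0561), and that after MCAO/R without MCAO/R + WT replicate 2 (-0.70, adjusted p = 0.0630). In sham mice the largest cluster was c7.0 in WT (42.1%) and c7.1 in Lrg1-/- mice (29.6%), and after MCAO/R it was c5.0 in both (53.0% and 29.6%). The surgery calls lay near the threshold. In WT mice the call was lost in 12 of 22 alternatives, without any of the sham + WT libraries (down to -0.42, adjusted p = 0.196, without replicate 2), the sham + Lrg1-/- libraries, the MCAO/R + WT libraries (adjusted p = 0.237 without replicate 1) or MCAO/R + Lrg1-/- replicate 5. In Lrg1-/- mice it was lost in 8, among them thinned cells (-0.05, adjusted p = 0.932) and the omission of sham + WT replicate 2 (0.0504), sham + Lrg1-/- replicates 1 (0.0807), 2 (0.138) and 5 (0.0639), or MCAO/R + Lrg1-/- replicates 1 (-0.35, 0.116) and 5 (0.113).

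Vascular smooth muscle cells and ciliated ependymal cells moved in opposite directions with surgery in Lrg1-/- mice. In vascular smooth muscle cells, Ackr3 stood at 106, 129 and 146 in sham + WT mice, 165, 167 and 112 in sham + Lrg1-/- mice, 74.7 and 62.5 in MCAO/R + WT mice and 73.0, 53.6 and 29.4 in MCAO/R + Lrg1-/- mice. All MCAO/R libraries lay below all sham libraries. The change with surgery was -1.56 ± 0.30 in Lrg1-/- mice (adjusted p = 0.0151) and -0.85 in WT mice (adjusted p = 0.215). The former was lost without sham + Lrg1-/- replicate 2 (-1.48, adjusted p = 0.0741) or MCAO/R + Lrg1-/- replicate 2 (-1.59, 0.0586). The largest cluster of these cells was c4.3 in sham + Lrg1-/- mice (48.4%) and c10.0 in MCAO/R + Lrg1-/- mice (37.6%), and the part of this in the result was not tested.

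In ciliated ependymal cells, which line the ventricles and beat the cerebrospinal fluid, Ackr3 stood at 65.5, 109 and 78.8 in sham + WT mice, 31.1, 64.2 and 69.3 in sham + Lrg1-/- mice, 213 and 118 in MCAO/R + WT mice and 133, 252 and 131 in MCAO/R + Lrg1-/- mice. The MCAO/R libraries of each genotype lay above its sham libraries. In these cells and in vascular smooth muscle cells, the effect of surgery on Ackr3 did not differ between the genotypes by the test. Ackr3 rose with surgery by 1.63 ± 0.38 in Lrg1-/- mice (adjusted p = 0.0413), and the change in WT mice did not pass (adjusted p = 0.326). The call was lost in 9 of 22 alternatives, among them the omission of sham + WT replicates 2 (adjusted p = 0.0519) and 3 (0.0593), sham + Lrg1-/- replicates 1 (1.30, 0.0978) and 2 (0.113) and MCAO/R + Lrg1-/- replicate 2 (1.26, 0.123). Cluster c13.0 held 28.9% of these cells in sham + Lrg1-/- mice and 62.5% in MCAO/R + Lrg1-/- mice. Beyond these 4 cell types Ackr3 was called in none of the 5 comparisons.

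**Figure D2:**
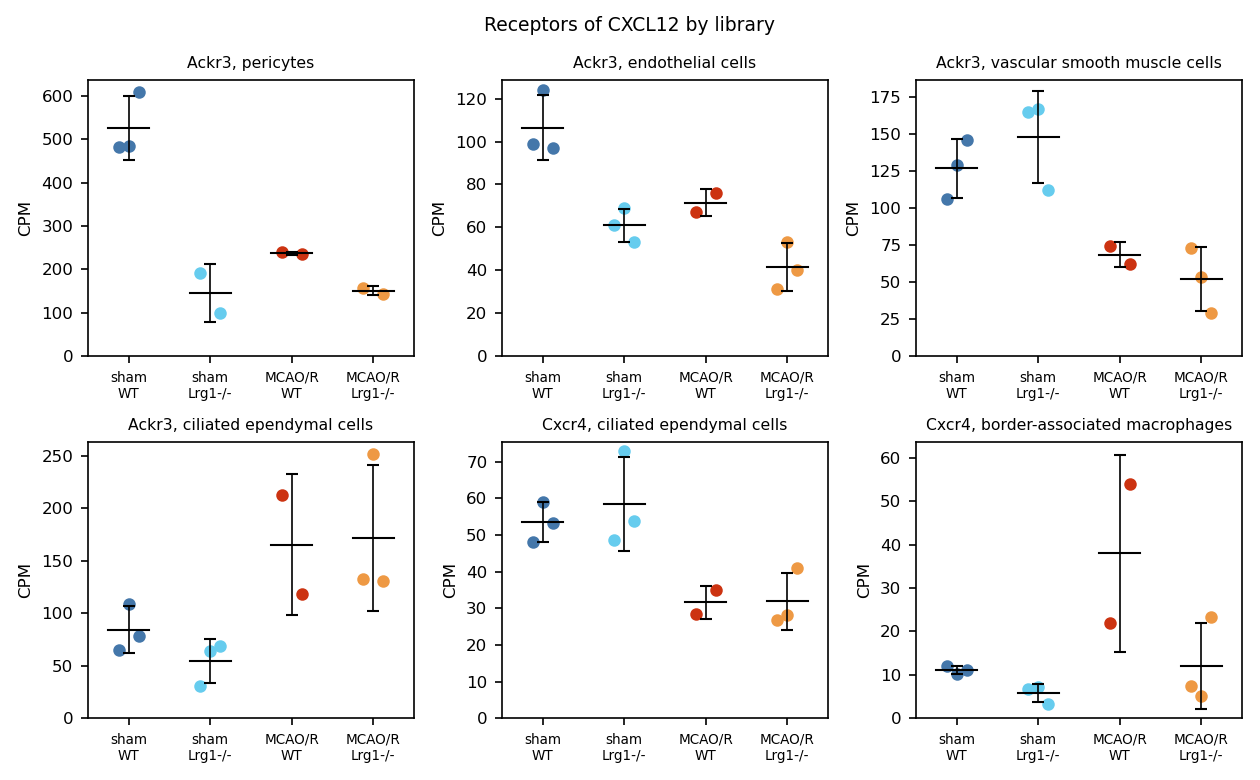
Levels of the CXCL12 receptors Ackr3 and Cxcr4 by library (points), in CPM, with the group mean (line) and SD (bar), for libraries with at least 20 cells of the type. Ackr3 in pericytes stood at 482 to 610 in sham + WT mice and at 98.8 to 240 in the other groups, while in ciliated ependymal cells it stood higher after MCAO/R.

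The same ependymal cells carried Cxcr4, at 48.2, 59.0 and 53.4 in sham + WT mice, 48.6, 72.9 and 53.8 in sham + Lrg1-/- mice, 28.5 and 34.9 in MCAO/R + WT mice and 26.9, 28.1 and 40.9 in MCAO/R + Lrg1-/- mice. Every MCAO/R library lay below every sham library. Neither change passed the test (-0.74, adjusted p = 0.281, in WT and -0.82, adjusted p = 0.0843, in Lrg1-/- mice). Of 2692 ciliated ependymal cells, 429 (15.9%) had a UMI of both receptors, beside 24.5% with Cxcr4 and 41.0% with Ackr3. Cells of all depths and libraries were pooled in these shares.

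In border-associated macrophages, the macrophages of the meninges and perivascular spaces, Cxcr4 stood at 12.1, 10.3 and 11.1 in sham + WT mice, 6.68, 7.30 and 3.34 in sham + Lrg1-/- mice, 22.0 and 54.0 in MCAO/R + WT mice and 7.49, 5.22 and 23.3 in MCAO/R + Lrg1-/- mice. The MCAO/R + WT libraries were far apart, and MCAO/R + Lrg1-/- replicate 5 lay just above the lower of them. Cxcr4 rose with MCAO/R in WT mice (1.68 ± 0.43, adjusted p = 0.0262) and was lower in MCAO/R + Lrg1-/- mice than in MCAO/R + WT mice (-1.95 ± 0.50, adjusted p = 0.0143). Cluster c17.0 was the largest in each group, with 77.9% in MCAO/R + WT and 46.4% in MCAO/R + Lrg1-/- mice. Both calls rested on MCAO/R + WT replicate 2, without which they were 0.99 (adjusted p = 0.279) and -1.24 (adjusted p = 0.170). The former was also lost without sham + WT replicate 1 (adjusted p = 0.0710), 2 (0.0892) or 3 (0.0867), and the latter without MCAO/R + Lrg1-/- replicate 2 (-1.26, 0.115).

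Cxcr4 in microglia stood at 0.770, 0.546 and 0.543 in sham + WT mice, 0.325, 0.875 and 2.92 in sham + Lrg1-/- mice, 1.43 and 5.28 in MCAO/R + WT mice and 1.77, 1.92 and 3.41 in MCAO/R + Lrg1-/- mice, beside a mean of 1.07 ± 0.836 in oligodendrocytes. The call between the WT groups (2.41 ± 0.55, adjusted p = 0.00685) was lost without MCAO/R + WT replicate 2 (1.25, adjusted p = 0.125). In monocytes and macrophages Cxcr4 stood at 167, 318 and 271 in sham + WT mice, 251 and 188 in sham + Lrg1-/- replicates 1 and 5, 90.4 in MCAO/R + WT replicate 1 and 186, 49.1 and 56.5 in MCAO/R + Lrg1-/- mice, and the change between the Lrg1-/- groups did not pass (-1.31, adjusted p = 0.0809).

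The shared ligand Cxcl12 fell with MCAO/R in the vessel. In endothelial cells it stood at 1567, 1537 and 1682 in sham + WT mice, 1318, 1803 and 1749 in sham + Lrg1-/- mice, 306 and 434 in MCAO/R + WT mice and 709, 292 and 333 in MCAO/R + Lrg1-/- mice. Every MCAO/R library lay far below every sham library. The change was -2.11 ± 0.31 in WT mice (adjusted p = 3.15e-04) and -1.96 ± 0.26 in Lrg1-/- mice (adjusted p = 3.09e-04). In pericytes Cxcl12 fell in WT mice from 157, 166 and 177 to 34.0 and 47.2 (-2.02 ± 0.18, adjusted p = 1.29e-06), and in ciliated ependymal cells it fell in both genotypes (-2.83 and -2.63). Pericytes and endothelial cells of WT mice thus held less of both genes after MCAO/R, whereas ciliated ependymal cells held less Cxcl12 beside the higher Ackr3 values given above.

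Among the inflammatory receptors, Ccr1 rose with MCAO/R in microglia and monocytes. In microglia it stood at 7.60, 5.18 and 5.64 in sham + WT mice, 7.48, 3.94 and 12.9 in sham + Lrg1-/- mice, 30.8 and 7.45 in MCAO/R + WT mice and 15.7, 29.6 and 25.2 in MCAO/R + Lrg1-/- mice. MCAO/R + WT replicate 1 was high and replicate 2 lay within the sham range, while all libraries of MCAO/R + Lrg1-/- mice lay above all sham libraries. The change was 1.68 ± 0.49 in WT mice (adjusted p = 0.0259) and 1.78 ± 0.53 in Lrg1-/- mice (adjusted p = 0.0175), with a difference between the genotypes of 0.10 (adjusted p = 0.949). The WT call rested on MCAO/R + WT replicate 1 (without it 0.25). It was lost in 7 of 22 alternatives, among them the omission of sham + WT replicate 2 (adjusted p = 0.0858) or 3 (0.0839). The call in Lrg1-/- mice was lost without sham + Lrg1-/- replicate 1 (0.0664) or 2 (0.0913) or MCAO/R + Lrg1-/- replicate 2 (0.0586). Summed monocyte markers in microglia were also higher after MCAO/R, with 158 to 174 CPM in sham + WT mice, 134 to 151 in sham + Lrg1-/- mice, 465 to 602 in MCAO/R + WT mice and 365 to 683 in MCAO/R + Lrg1-/- mice. Their part in the result was not tested, nor was that of RNA from neutrophils, where Ccr1 was highest.

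In monocytes and macrophages Ccr1 stood at 49.4, 37.2 and 31.4 in sham + WT mice, 17.9 and 50.7 in sham + Lrg1-/- replicates 1 and 5, 183 in MCAO/R + WT replicate 1 and 156, 208 and 144 in MCAO/R + Lrg1-/- mice. The MCAO/R libraries were all well above the sham libraries. Ccr1 rose by 2.43 ± 0.41 in Lrg1-/- mice (adjusted p = 0.00350), a call that was lost without sham + Lrg1-/- replicate 1 (1.77, adjusted p = 0.0662). In WT mice a test needed libraries with fewer than 20 cells. With a minimum of 10, chosen after the data had been seen, MCAO/R + WT replicate 2 entered with 13 cells and 194 CPM, and Ccr1 was 2.18 higher after MCAO/R (log2, adjusted p = 0.00301). Most of these cells were in c9.4 in the sham groups (56.1% in WT and 68.2% in Lrg1-/- mice) and in c9.1 after MCAO/R (87.0% and 91.3%), and the part of this in the result was not tested.

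Ccr2 in the same cells stood at 406, 182 and 287 in sham + WT mice, 164 and 141 in sham + Lrg1-/- mice, 275 in MCAO/R + WT replicate 1 and 281, 277 and 259 in MCAO/R + Lrg1-/- mice. The groups overlapped except that the 2 sham + Lrg1-/- libraries lay below all others. No comparison passed, with 0.87 (adjusted p = 0.0895) for surgery in Lrg1-/- mice and -0.98 (adjusted p = 0.175) for genotype in sham mice.

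Neutrophils reached 20 cells only after MCAO/R, in both MCAO/R + WT libraries and in MCAO/R + Lrg1-/- replicates 2 and 5. Ccr1 stood at 1024 and 811 in the former and 410 and 443 in the latter, Cxcr2 at 668 and 742 against 331 and 328, and Cxcr4 at 454 and 421 against 120 and 328. Each was lower in every Lrg1-/- library than in every WT library. The log2 fold changes were -0.96 ± 0.31 for Ccr1 (adjusted p = 0.205), -0.94 ± 0.30 for Cxcr2 (adjusted p = 0.199) and -0.87 for Cxcr4 (adjusted p = 0.314), so that none passed. Of the unnamed cells in MCAO/R + Lrg1-/- replicate 5, those of clusters led by S100a8, S100a9 and Arg1 were not counted as neutrophils, and their part in these values was not tested. Of 1541 neutrophils, 53.5% had a UMI of both Ccr1 and Cxcr2.

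**Figure D3:**
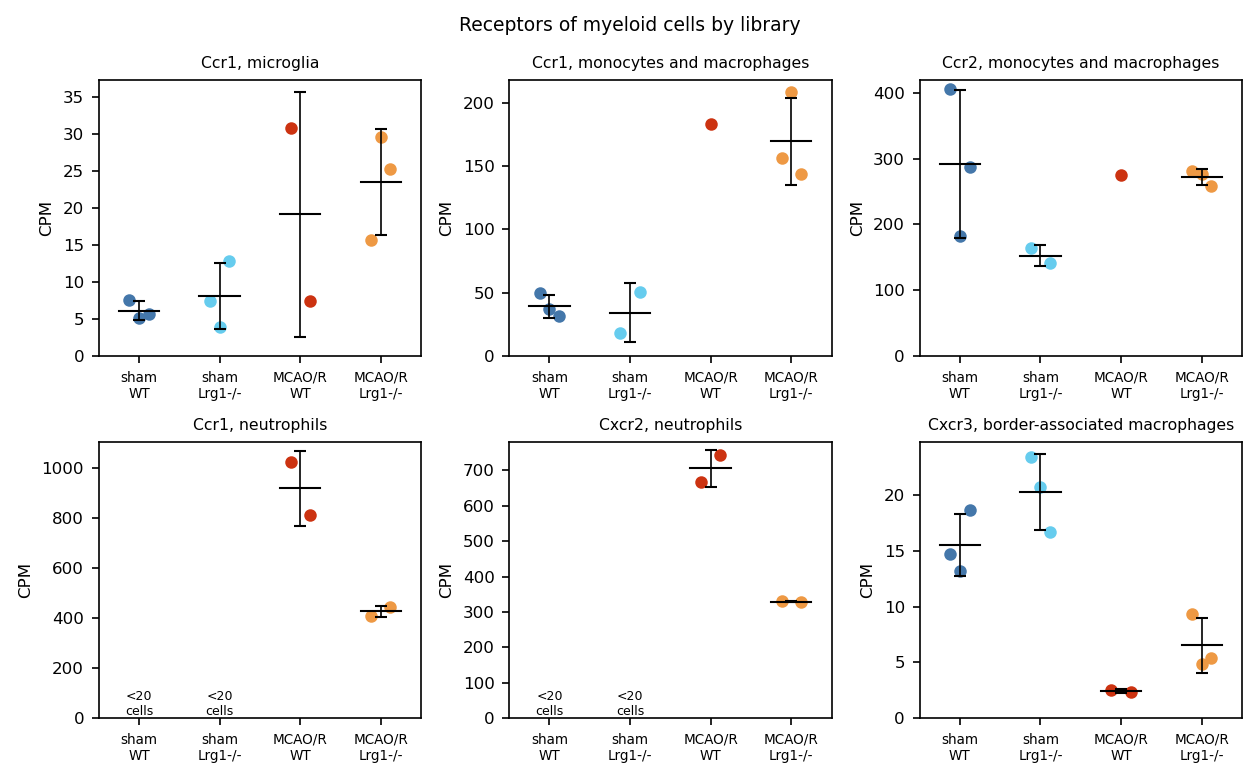
Levels of Ccr1, Ccr2, Cxcr2 and Cxcr3 in myeloid cells by library (points), in CPM, with the group mean (line) and SD (bar); groups with 1 library show the point alone, and the sham groups had under 20 neutrophils per library. Ccr1 in monocytes and macrophages stood at 17.9 to 50.7 in the sham libraries and at 144 to 208 after MCAO/R, and Cxcr3 in border-associated macrophages moved the opposite way.

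Cxcr3 fell with MCAO/R in the border-associated macrophages of both genotypes and in the microglia of WT mice. In border-associated macrophages it stood at 14.7, 13.2 and 18.6 in sham + WT mice, 23.4, 20.7 and 16.7 in sham + Lrg1-/- mice, 2.56 and 2.32 in MCAO/R + WT mice and 9.36, 4.84 and 5.37 in MCAO/R + Lrg1-/- mice. All MCAO/R libraries lay below all sham libraries, and the MCAO/R + WT libraries were the lowest. The change was -2.66 ± 0.40 in WT mice (adjusted p = 7.75e-04), which held in all 21 alternatives, and -1.82 ± 0.38 in Lrg1-/- mice (adjusted p = 0.00962), which was lost without sham + Lrg1-/- replicate 1 (-1.66, adjusted p = 0.0622) or MCAO/R + Lrg1-/- replicate 2 (-1.51, 0.0908). The genotypes did not differ by the test after MCAO/R (1.20, adjusted p = 0.0896) or in the effect of surgery (0.84, adjusted p = 0.588). Microglial markers in these macrophages summed to 1803 to 2203 in sham + WT mice, 1836 to 1916 in sham + Lrg1-/- mice, 525 to 771 in MCAO/R + WT mice and 1495 to 2423 in MCAO/R + Lrg1-/- mice, and their part in the result was not tested.

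In microglia, at a much lower level, Cxcr3 stood at 1.29, 1.05 and 1.11 in sham + WT mice, 0.325, 0.437 and 1.67 in sham + Lrg1-/- mice, 0.241 and 0.190 in MCAO/R + WT mice and 0.442, 0.640 and 0.745 in MCAO/R + Lrg1-/- mice. The sham + Lrg1-/- libraries were spread from below the MCAO/R + Lrg1-/- libraries to above the sham + WT libraries. The fall in WT mice (-2.37 ± 0.44, adjusted p = 0.00215) held in all 21 alternatives, beside a mean of 0.124 in oligodendrocytes, where Cxcr3 had 0 UMIs in the MCAO/R + WT libraries and stood at 0.370, 0.252 and 0.248 in the MCAO/R + Lrg1-/- libraries. After MCAO/R, Cxcr3 was higher in the Lrg1-/- group (1.52 ± 0.47, adjusted p = 0.0351), and the effect of surgery differed between the genotypes (2.54 ± 0.70, adjusted p = 0.0393). The higher level after MCAO/R was lost in 10 of 21 alternatives. Among them was the omission of sham + WT replicate 1 (0.0572), 2 (0.0672) or 3 (0.0678), MCAO/R + WT replicate 1 or 2 and MCAO/R + Lrg1-/- replicate 2 (0.0756) or 5 (0.0963). The difference in effect was lost without any library but sham + Lrg1-/- replicate 5, MCAO/R + WT replicate 1 and MCAO/R + Lrg1-/- replicate 1, with adjusted p from 0.0647 to 0.112.

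Other low receptor counts of microglia were called as well. Ccr2 stood at 1.49, 1.33 and 1.63 in sham + WT mice, 0.976, 0.437 and 1.25 in sham + Lrg1-/- mice, 0.594 and 0.905 in MCAO/R + WT mice and 1.55, 2.98 and 2.72 in MCAO/R + Lrg1-/- mice. The oligodendrocytes read as background stood at 0.126, 0.107 and 0.165, 0.529, 1.22 and 0, 0.0685 and 0.0283 and 0.741, 2.39 and 2.35 in the same order, so the background too was higher in MCAO/R + Lrg1-/- mice, and its part in the result was not tested. The MCAO/R + Lrg1-/- libraries lay above both the MCAO/R + WT and the sham + Lrg1-/- libraries. Ccr2 was higher by 1.73 ± 0.37 in MCAO/R + Lrg1-/- mice than in MCAO/R + WT mice (adjusted p = 0.00541) and by 1.73 ± 0.44 than in sham + Lrg1-/- mice (adjusted p = 0.00801), and the effect of surgery differed between the genotypes (2.72 ± 0.57, adjusted p = 0.0154). The last 2 calls were lost without sham + Lrg1-/- replicate 2 (1.36, adjusted p = 0.0511, and 2.34, adjusted p = 0.0537), and all 3 once cells were thinned. Neutrophils, where Cxcr2 was highest, numbered 6, 16 and 6 in the sham + WT libraries and 47 and 44 in the MCAO/R + WT libraries. Cxcr2 in microglia rose in WT mice from 0.373, 0.143 and 0.362 to 1.13 and 1.52 (2.17 ± 0.61, adjusted p = 0.0222), beside 0.377 in oligodendrocytes. The part of neutrophil RNA in this rise was not tested. This call was lost without sham + WT replicate 1 (0.0509), 2 (0.0965) or 3 (0.0580) or MCAO/R + WT replicate 2 (0.0634).

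Cxcr6 in microglia separated the sham groups. It stood at 0.373, 0.166 and 0.336 in sham + WT mice, 2.93, 2.62 and 1.25 in sham + Lrg1-/- mice, 0.649 and 0.476 in MCAO/R + WT mice and 0.884, 1.07 and 1.22 in MCAO/R + Lrg1-/- mice, beside 0.572 in oligodendrocytes. The sham + Lrg1-/- libraries were the highest of all. The difference of 2.86 ± 0.43 between the sham groups (adjusted p = 6.05e-04) held in all 22 alternatives. Summed T cell markers in the microglia ran from 23.5 to 24.6 in sham + WT mice and from 17.3 to 24.4 in sham + Lrg1-/- mice. Clusters c2.0 and c2.1 held 48.7% and 37.1% of the microglia of sham + WT mice and 10.3% and 6.55% of those of sham + Lrg1-/- mice, while c2.2 held 4.28% and 61.0%. In the unnamed cells, whose makeup differs between libraries, Cxcr6 stood at 0.130, 0.384 and 0 in sham + WT mice. It stood at 2.28, 1.14 and 3.11 in those of sham + Lrg1-/- mice. The part of the markers, of the clusters and of background RNA in the result was not tested.

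The ligands of these receptors were measured in the same microglia. Ccl3, a CCR1 ligand, stood at 1360, 1478 and 1147 in sham + WT mice, 856, 416 and 808 in sham + Lrg1-/- mice, 3854 and 4001 in MCAO/R + WT mice and 2480, 3424 and 2173 in MCAO/R + Lrg1-/- mice, so that it rose in WT (1.57, adjusted p = 0.00147) and Lrg1-/- mice (2.06, adjusted p = 1.04e-04). Ccl2, the CCR2 ligand, rose in WT (2.36, adjusted p = 0.0118) and Lrg1-/- mice (2.24, adjusted p = 0.00698), with MCAO/R + WT libraries as far apart as 686 and 111. The CXCR2 ligand Cxcl2 rose in WT mice by 3.79 (adjusted p = 4.43e-05) and in Lrg1-/- mice by 4.39. Cxcl16, the ligand of CXCR6, rose in Lrg1-/- mice from 57.7, 43.5 and 52.5 to 141, 187 and 126 (1.67, adjusted p = 3.57e-04), while the change in WT mice did not pass (0.68, adjusted p = 0.0974), nor did the difference between the genotypes (0.99, adjusted p = 0.118).

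The CXCR3 ligand Cxcl10 differed in microglia with genotype and, in Lrg1-/- mice, with surgery. It stood at 1251, 1442 and 1067 in the microglia of sham + WT mice, 60.5, 90.3 and 60.1 in sham + Lrg1-/- mice, 939 and 918 in MCAO/R + WT mice and 529, 474 and 294 in MCAO/R + Lrg1-/- mice. Every Lrg1-/- library lay below every WT library, and the sham + Lrg1-/- libraries lowest. The MCAO/R libraries lay above the sham libraries in Lrg1-/- mice and below them in WT mice. The genotype difference was -4.34 in sham mice (adjusted p = 2.23e-07) and -1.20 after MCAO/R (adjusted p = 0.00248), and these differed from each other (3.13, adjusted p = 5.64e-04).

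T cells differed between the genotypes in 3 of 6 receptors tested in sham mice, beside 13.8% of all genes in T cells, with Ccr7 and Cxcr4 lower and Ccr2 higher in the Lrg1-/- group. The libraries held 64, 67 and 36 T cells in sham + WT mice, 180, 37 and 65 in sham + Lrg1-/- mice, 23 in MCAO/R + WT replicate 1 and 48, 510 and 325 in MCAO/R + Lrg1-/- mice. With 15 T cells in MCAO/R + WT replicate 2, no comparison with the MCAO/R + WT group was tested at the minimum of 20 cells. The largest T cell cluster was c15.1 in sham + WT mice (49.1%, beside 34.1% in c15.0) and c15.0 in sham + Lrg1-/- mice (58.9%, beside 33.7% in c15.1), and the part of this in the differences was not tested.

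Ccr7, the lymph node homing receptor, stood at 425, 232 and 217 CPM in the T cells of sham + WT mice, 48.8, 20.1 and 33.4 in sham + Lrg1-/- mice, 115 in MCAO/R + WT replicate 1 and 64.4, 56.5 and 61.2 in MCAO/R + Lrg1-/- mice. The sham + WT libraries lay above all others and the sham + Lrg1-/- libraries below. Ccr7 was lower in sham + Lrg1-/- mice than in sham + WT mice by a log2 fold change of -2.89 ± 0.31 (adjusted p = 2.33e-04, edgeR's quasi-likelihood test with Benjamini-Hochberg adjustment). The call held in all 22 alternatives. Markers of B cells, which carry Ccr7 at a higher level, differed between these libraries too. All 7 B cell markers were found in the T cells of sham + WT mice, with sums of 519, 385 and 18548 CPM in replicates 1, 2 and 3, against 201, 71.6 and 137 in sham + Lrg1-/- mice. Without sham + WT replicate 3 the difference in Ccr7 was -3.03 (adjusted p = 5.36e-04). The part of B cell RNA in the other libraries was not tested.

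Ccr2 went the opposite way. It stood at 22.7, 25.5 and 17.9 in the T cells of sham + WT mice, 118, 67.1 and 69.1 in sham + Lrg1-/- mice, 4.26 in MCAO/R + WT replicate 1 and 93.0, 88.1 and 82.3 in MCAO/R + Lrg1-/- mice. All Lrg1-/- libraries lay above all WT libraries. The difference between the sham groups was 2.06 ± 0.28 (adjusted p = 7.09e-04) and held in all 22 alternatives. With a minimum of 10 cells the MCAO/R groups could be compared too, and Ccr2 was 3.44 higher in the Lrg1-/- group (log2, adjusted p = 0.00816). The effect of surgery on Ccr2 did not differ by the test (1.38, adjusted p = 0.672), and none of the other 5 receptors tested passed between the MCAO/R groups, with adjusted p from 0.0585 for Cxcr4 (-1.12) and 0.0622 for Cxcr6 (2.03) to 0.983 for Ackr3. Monocyte markers in these T cells summed to 716 to 900 in sham + WT mice and 1497 to 1874 in sham + Lrg1-/- mice, and dendritic cell markers to 101 to 151 and 233 to 269. Both cell types carry Ccr2. Whether the marker sums came from such cells or from the T cells themselves was not tested, nor was their part in the result.

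Cxcr4 was lower in the T cells of sham + Lrg1-/- mice, at 42.7, 29.1 and 41.7, than in sham + WT mice, at 92.4, 65.7 and 83.0, with 115 in MCAO/R + WT replicate 1 and 78.7, 52.0 and 52.0 in MCAO/R + Lrg1-/- mice. The sham groups did not overlap. The difference of -0.93 ± 0.25 (adjusted p = 0.0258) was lost in 6 of 22 alternatives. Among them was the omission of sham + WT replicate 1 (0.0951) or 3 (0.0676) and sham + Lrg1-/- replicate 2 (0.0620). Cxcr6 stood at 87.1, 72.4 and 96.4 in sham + WT mice and 226, 128 and 89.3 in sham + Lrg1-/- mice (0.92 ± 0.34, adjusted p = 0.0956), and Cxcr3 at 20.9, 33.5 and 47.1 against 70.5, 47.0 and 64.3 (adjusted p = 0.0646). Neither passed the test, and the groups overlapped in both genes.

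**Figure D4:**
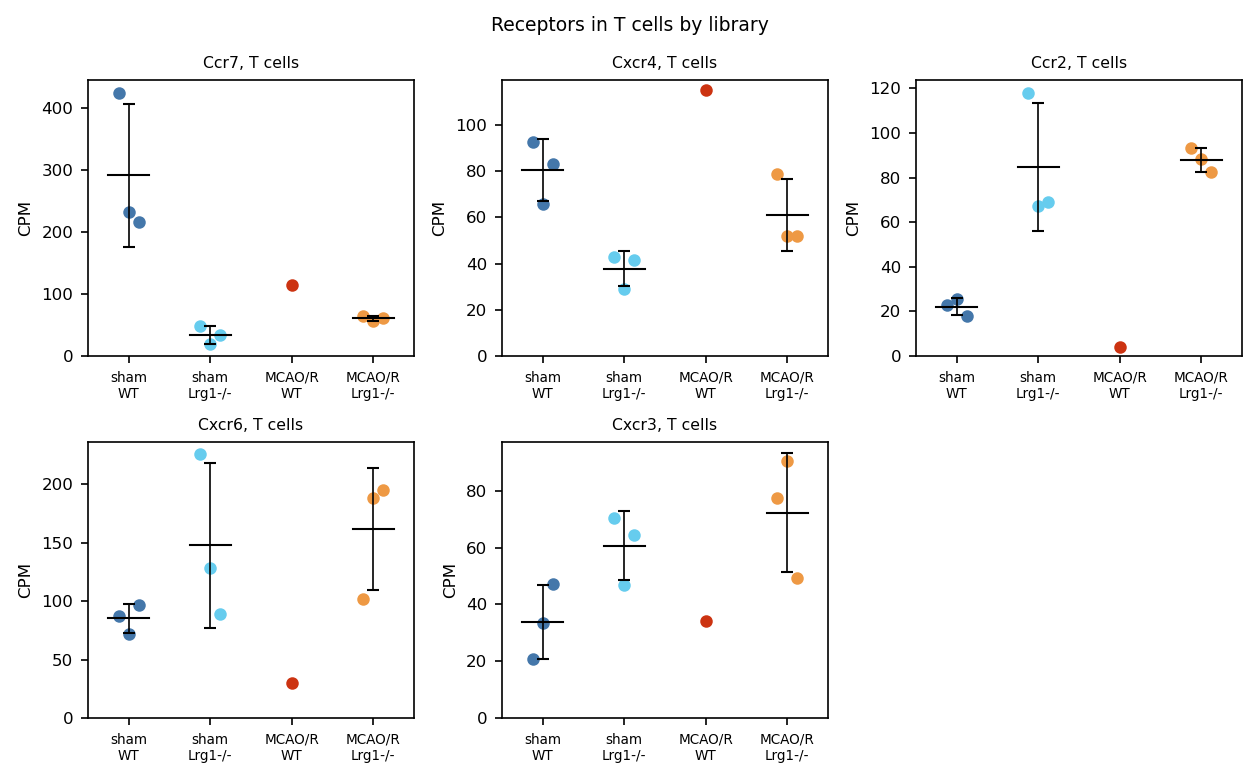
Levels of 5 receptors in T cells by library (points), in CPM, with the group mean (line) and SD (bar); MCAO/R + WT has 1 library with at least 20 T cells. Between the sham groups Ccr7 and Cxcr4 stood lower and Ccr2 higher in Lrg1-/- mice, with no overlap of libraries in these 3 panels.

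Receptors were also found together in single T cells. Of 1370 T cells, 46.1% had a UMI of Cxcr6, 32.6% of Cxcr3, 31.2% of Cxcr4, 30.4% of Ccr2 and 16.9% of Ccr7. Ccr2 and Cxcr6 were found together in 21.4% of cells, Cxcr3 and Cxcr6 in 19.2% and Cxcr4 and Cxcr6 in 14.6%. Ccr7 was found together with Cxcr6 in 2.34%, with Ccr2 in 1.68% and with Cxcr3 in 2.55%. These shares pool all libraries and depths and are given without a test, and the libraries themselves differed in Ccr7 and Ccr2. In B cells Ccr7 stood at 1158, 829 and 794 in sham + WT mice, 575 in the sham + Lrg1-/- library with enough cells and 335 and 273 in those of MCAO/R + Lrg1-/- mice, and the 3 sham + WT libraries were the highest.

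**Figure D5:**
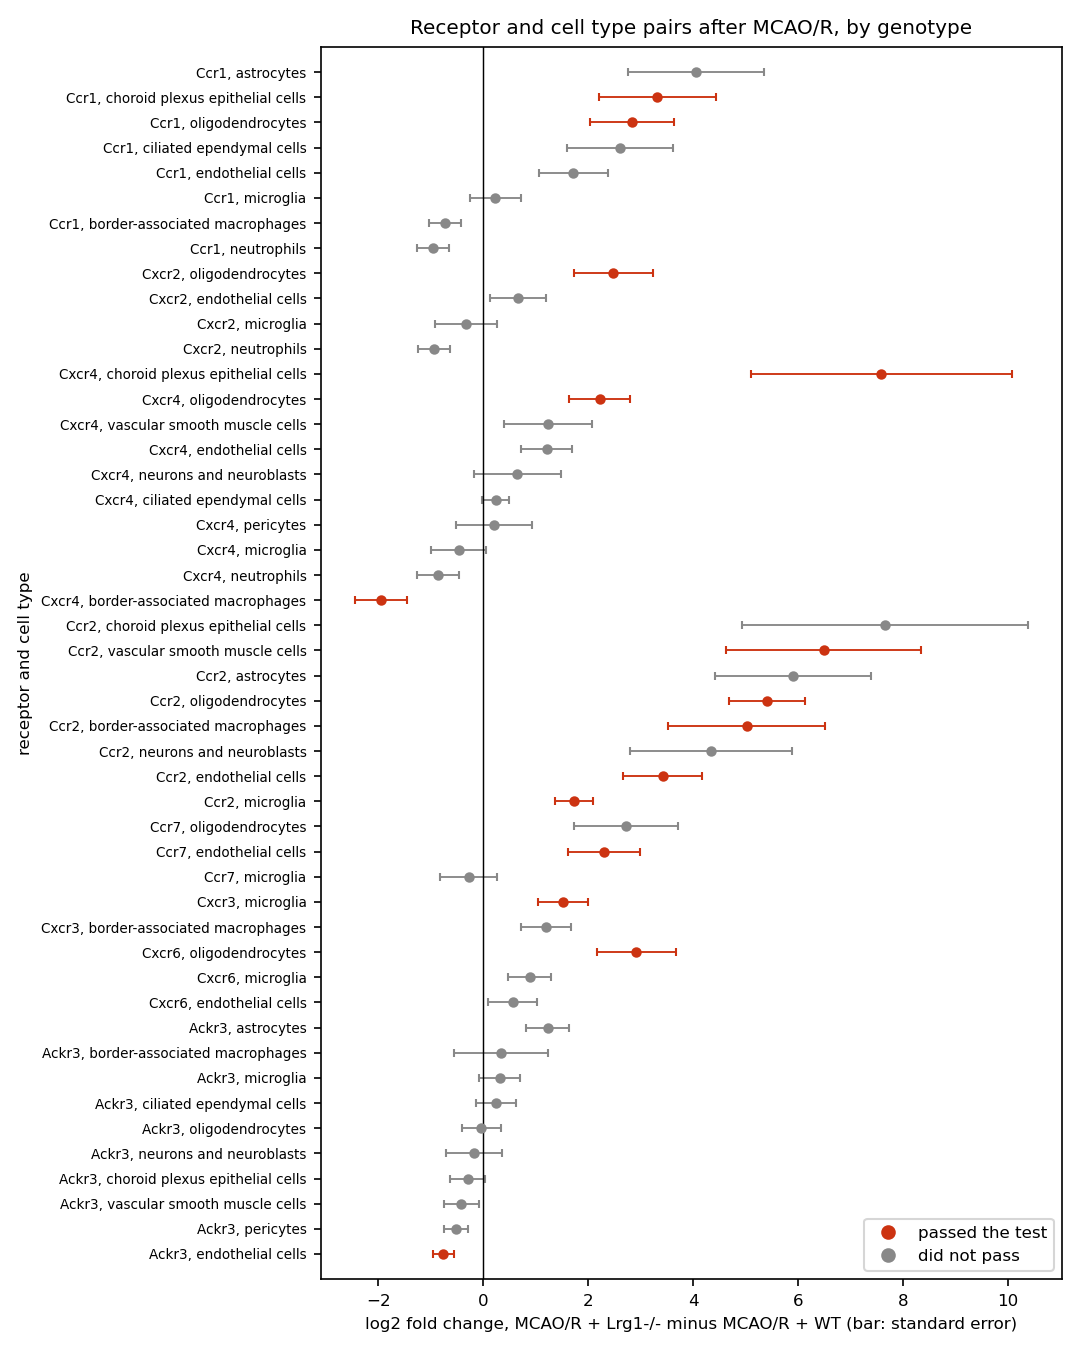
Log2 fold change of each receptor in each cell type tested (48 pairs), MCAO/R + Lrg1-/- minus MCAO/R + WT, from edgeR; bars are standard errors, and red points passed the test. The 15 pairs called include 13 higher in MCAO/R + Lrg1-/- mice, and the 2 lower pairs were Ackr3 in endothelial cells and Cxcr4 in border-associated macrophages.

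Of the 13 pairs that were higher in MCAO/R + Lrg1-/- mice than in MCAO/R + WT mice, 11 were leukocyte receptors in oligodendrocytes, vascular cells, choroid plexus epithelium and border-associated macrophages, mostly at a few CPM or less. Of all genes, 29.1% were called in oligodendrocytes in this comparison, 27.3% in choroid plexus epithelial cells, 26.4% in endothelial cells, 20.5% in border-associated macrophages and 12.1% in vascular smooth muscle cells. In oligodendrocytes Ccr2 stood at 0.0685 and 0.0283 CPM in the MCAO/R + WT libraries, 1 UMI each, and at 0.741, 2.39 and 2.35 in the MCAO/R + Lrg1-/- libraries. The groups did not overlap, and the call (5.41 ± 0.72, adjusted p = 1.99e-04) was kept in all 21 alternatives. Ccr2 UMIs numbered 71 over the 11792 oligodendrocytes of all libraries. With 1 UMI in each MCAO/R + WT library, the pair passed the filter on low counts through other libraries. The alternatives reuse these libraries, and the call is not read as support for a difference. Ccr1 stood at 1.03 and 0.255 against 0.741, 3.90 and 5.32 (2.83 ± 0.80, adjusted p = 0.0180), Cxcr6 at 0 and 0.198 against 1.48, 1.01 and 0.805 (2.92, adjusted p = 0.0120), Cxcr2 at 0.274 and 0.198 against 0, 0.881 and 1.92 (2.48, adjusted p = 0.0235) and Cxcr4 at 0.343 and 0.509 against 0.370, 1.26 and 3.22 (2.22, adjusted p = 0.0114). MCAO/R + Lrg1-/- replicate 1 lay within the WT range for Ccr1 and Cxcr4 and at 0 for Cxcr2.

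Markers of leukocytes were higher in the same oligodendrocytes. Their neutrophil markers summed to about 14.8 CPM in both libraries of the MCAO/R + WT group and to 52.2 to 406 in MCAO/R + Lrg1-/- mice, monocyte markers to 37.4 to 59.1 and 60.0 to 266, microglial markers to 139 to 198 and 471 to 757, and T cell markers to 0.617 to 0.905 and 1.11 to 14.7. Cluster c3.0 held 66.9% of the oligodendrocytes of MCAO/R + Lrg1-/- mice and 4.83% of those of MCAO/R + WT mice, where c3.1 was the largest (47.4%). The part of such RNA and of the clusters in the 5 calls was not tested. Without MCAO/R + WT replicate 2, the adjusted p was 0.152 for Ccr1, 0.178 for Cxcr2 and 0.0549 for Cxcr4. Without MCAO/R + WT replicate 1 it was 0.0634 for Cxcr2, 0.0528 for Cxcr4 and 0.0511 for Cxcr6, and without MCAO/R + Lrg1-/- replicate 5 it was 0.0725 for Ccr1 and 0.168 for Cxcr4.

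The vessel wall and choroid plexus gave calls of the same kind. In endothelial cells Ccr2 stood at 0.239 and 0.127 in the MCAO/R + WT and 0.197, 3.27 and 1.74 in the MCAO/R + Lrg1-/- libraries (3.42 ± 0.75, adjusted p = 0.00494, held in all 20 alternatives), with replicate 1 of the latter inside the WT range. In vascular smooth muscle cells Ccr2 had 0 UMIs in both MCAO/R + WT libraries and stood at 2.23, 2.41 and 7.54 in the MCAO/R + Lrg1-/- libraries (adjusted p = 0.0445). In choroid plexus epithelial cells Cxcr4 had 0 UMIs in both MCAO/R + WT libraries and stood at 3.37, 2.50 and 4.76 in the others (adjusted p = 0.0383), and Ccr1 stood at 0.758 and 0 against 3.05, 4.77 and 6.63 (adjusted p = 0.0392). A fold change against groups at 0 is not given. The MCAO/R + WT libraries held 108 and 25 choroid plexus epithelial cells, and the MCAO/R + Lrg1-/- libraries 1365, 2077 and 1367. Pairs at 0 in both MCAO/R + WT libraries passed the filter on low counts only through other libraries. Their calls are counted among the 13 higher pairs but are not read as support for a difference. The largest vascular smooth muscle cluster was c10.1 in MCAO/R + WT mice (45.2%) and c10.0 in MCAO/R + Lrg1-/- mice (37.6%). Among choroid plexus epithelial cells cluster 8 held 58.6% in MCAO/R + WT mice and cluster 4 held 63.2% in MCAO/R + Lrg1-/- mice, and among border-associated macrophages c17.1 held 9.56% and 37.2%. In border-associated macrophages Ccr2 stood at 0.639 and 0 against 13.1, 4.10 and 39.4 (log2 fold change 5.02, adjusted p = 0.0282).

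Neutrophil markers were again higher in these cells, except that the groups overlapped in border-associated macrophages, and monocyte markers were higher in vascular smooth muscle and choroid plexus epithelial cells and overlapped in the others. Neutrophil markers summed to 17.7 to 21.3 and 48.2 to 361 in the endothelial cells of the MCAO/R + WT and MCAO/R + Lrg1-/- groups, to 13.8 to 17.7 and 135 to 896 in vascular smooth muscle cells, to 22.1 to 22.7 and 228 to 652 in choroid plexus epithelial cells and to 69.6 to 71.4 and 56.2 to 707 in border-associated macrophages. Monocyte markers summed to 888 to 1038 and 956 to 1056 in endothelial cells, 131 to 186 and 357 to 557 in vascular smooth muscle cells, 94.5 to 111 and 281 to 360 in choroid plexus epithelial cells and 3267 to 3387 and 3258 to 5238 in border-associated macrophages. Their part in the calls was not tested.

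Of these calls, that of Ccr2 in endothelial cells was kept in every alternative run, all of them on the same libraries with low counts. The others were lost without single libraries. Ccr2 in vascular smooth muscle cells was lost without sham + WT replicate 1 (adjusted p = 0.0554), 2 (0.0683) or 3 (0.0598), sham + Lrg1-/- replicate 1 (0.0555), MCAO/R + WT replicate 1 (0.166) or 2 (0.221) or MCAO/R + Lrg1-/- replicate 1 (0.0571). In choroid plexus epithelial cells Ccr1 was lost in 10 of 19 alternatives. Among them was the omission of sham + Lrg1-/- replicate 1 (0.0510) or 2 (0.0506), MCAO/R + WT replicate 1 or 2 or MCAO/R + Lrg1-/- replicate 2 (0.0585) or 5 (0.0640). Cxcr4 was lost there in 6 of 19, among them the omission of MCAO/R + WT replicate 1 or 2 or MCAO/R + Lrg1-/- replicate 1 (0.0577) or 5 (0.0546). Ccr2 in border-associated macrophages was lost without MCAO/R + WT replicate 1 (0.0929) or 2 (0.139) or MCAO/R + Lrg1-/- replicate 5 (0.0982).

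Ccr7 in endothelial cells was called in 4 comparisons at levels of 1.55, 0.940 and 0.884 in sham + WT mice, 0.359, 0.100 and 0 in sham + Lrg1-/- mice, 0.269 and 0.169 in MCAO/R + WT mice and 0.197, 1.76 and 0.436 in MCAO/R + Lrg1-/- mice, beside 0.371 in oligodendrocytes. Only MCAO/R + Lrg1-/- replicate 2 stood high among the MCAO/R libraries. The log2 fold change was 2.30 ± 0.69 between the genotypes after MCAO/R (adjusted p = 0.0256), -2.26 for surgery in WT mice (adjusted p = 0.0272) and 2.62 in Lrg1-/- mice (adjusted p = 0.0417), and the difference in effect was 4.88 ± 1.08 (adjusted p = 0.0329). Without MCAO/R + Lrg1-/- replicate 2 the first was 0.40 (adjusted p = 0.809), the third 0.72 (0.715) and the difference in effect 2.97 (0.267). The first was also lost without MCAO/R + WT replicate 1 (0.0708) or 2 (0.111), and surgery in WT mice without sham + WT replicate 1 (0.0800) or 2 (0.0513) or MCAO/R + WT replicate 1 (0.0962) or 2 (0.121). The call in Lrg1-/- mice was also lost without sham + WT replicate 2 or 3 or any sham + Lrg1-/- library (adjusted p from 0.0514 to 0.168), and the difference in effect without any sham + WT or MCAO/R + WT library or sham + Lrg1-/- replicate 2 or 5 (0.0533 to 0.105). Ccr1 in endothelial cells was called higher after MCAO/R in Lrg1-/- mice (2.19, adjusted p = 0.0455) and was lost without any of the sham libraries (adjusted p from 0.0555 to 0.146) or without MCAO/R + Lrg1-/- replicate 2 (0.256) or 5 (0.0663). Pooled over all libraries, Ccr1 stood at 1.33 CPM in endothelial cells, near the 1.28 in the oligodendrocytes read as background.

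Of 15 other chemokine receptors listed beside the 8, 12 had enough counts after MCAO/R, and 12 of their 63 pairs were called between the genotypes, 10 higher and 2 lower in the Lrg1-/- group. For MCAO/R against sham, 8 of 62 pairs were called in WT mice (12.9%, beside 9.48% of all genes), 3 higher, and 11 of 71 in Lrg1-/- mice (15.5%, beside 10.1%), 6 higher. Between the sham groups it was 12 of 68 (17.6%, beside 11.4%), 9 higher. Ackr1, which like Ackr3 takes up chemokines without G protein signalling, moved the opposite way in endothelial cells, from 9.03, 14.2 and 5.59 in sham + WT mice to 172 and 62.5 in MCAO/R + WT mice (3.64, adjusted p = 0.00183), with 38.8, 11.9 and 84.3 in sham + Lrg1-/- mice and 230, 600 and 262 in MCAO/R + Lrg1-/- mice. Of 31 ligand genes used, 28 were tested. After MCAO/R, 62 of 220 ligand pairs were called between the genotypes, 55 of them higher in the Lrg1-/- group, with a median log2 fold change of 1.04. For MCAO/R against sham the counts were 32 of 221 in WT mice (14.5%), 24 higher, and 82 of 256 in Lrg1-/- mice (32.0%), 71 higher, and between the sham groups 38 of 242 (15.7%), 23 higher, beside the same shares of all genes. The share of pairs called between the genotypes after MCAO/R was thus 31.2% for the 8 receptors, 19.0% for the other receptors and 28.2% for the ligands, beside the 16.1% of all genes. The Lrg1-/- libraries of this comparison also held the higher leukocyte marker sums given above for oligodendrocytes, vascular smooth muscle cells and choroid plexus epithelial cells.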

How the data were processed

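Libraries were made with the Chromium 3′ kit, and the deposited values were raw UMI counts per gene and barcode. Per the file headers and the submitters' notes, the counts came from Cell Ranger 7.0.1 and the mm10 genome, while the study's methods name another Cell Ranger version. Of the Lrg1-/- libraries, 4 held 15500, 9000, 5650 and 8500 barcodes with at least 551 UMIs, where the other 7 libraries began at 500, so a difference in cell calling cannot be told apart from genotype there. Barcodes with more than 500 genes, more than 1000 UMIs and less than 25% mitochondrial UMIs were kept (132437 of 155804). Simulated doublets marked 6510 cells, which were removed. In 6 of 11 libraries the score threshold failed and the expected 6% were removed. These were all sham + Lrg1-/- libraries, MCAO/R + Lrg1-/- replicates 1 and 5 and sham + WT replicate 1. In the others 2.88% to 4.77% were removed, so doublet removal largely followed genotype and cannot be told apart from it. Cells were clustered from 2000 variable genes and 15 principal components with a neighbour graph balanced over libraries (leidenalg 0.10.2). Clusters were named from fixed markers, and rebuilt names may differ from those of the study. Counts were summed per library and cell type and tested with edgeR under TMM, filterByExpr and 1 fit over the 4 groups. p-values were adjusted over all genes of the type. The study's test over cells was replaced by this test over mice. The scripts were checked on simulated data.

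The members, gene lists and tests were chosen with earlier results of these data known. The genes named are the 8 members, the listed ligands and receptors tied to them, and the 3 genes most like each member. Lrg1 is named as the check of the genotype, and S100a8, S100a9 and Arg1 as leading genes of unnamed clusters. Intervals and SEs rest on 2 or 3 mice per group, and the SEs of fold changes also on a spread shared over the 4 groups. Each such SE was the absolute fold change divided by the square root of edgeR's F statistic. Alternatives were another scaling, no filter on low counts, other cell minimums, a 10% mitochondrial limit, doublets kept, clusters without balancing, cells thinned to 1000 UMIs, a replicate block, only the groups compared, DESeq2 and leaving out each library. The minimum of 10 cells was added after seeing the data. The libraries were not treated as paired by the labels' replicate numbers. Same-numbered libraries had a median correlation of deviations between -0.04 and 0.03. With 2 or 3 libraries per group, this check cannot exclude pairing.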

Additional observations from a re-analysis of the deposited data

Results flagged for a closer look

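In 3 pairs the effect of surgery differed between the genotypes by the interaction term of edgeR. For Ccr7 in endothelial cells the difference was 4.88 (log2), for Ccr2 in microglia 2.72 and for Cxcr3 in microglia 2.54, each higher in Lrg1-/- than in WT mice. All 3 genes were at 2.98 CPM or less in every library of these cells, and each call was lost without at least 1 library, as given beside the values above.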

How the results depend on the processing

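The number of pairs called between the genotypes after MCAO/R was 15 of 48 tested, and it was 27 of 88 without the filter on low counts, 8 of 45 with clusters without balancing, 5 of 44 with only the groups compared and 1 of 15 with thinned cells. All genes were called at 16.1% in the report and at 11.7%, 16.9%, 7.33% and 11.0% in these alternatives, so that with clusters without balancing (17.8%) the share among the receptors was near that of all genes, and with thinned cells (6.67%) it was below it. For MCAO/R against sham in WT mice (9 of 46), thinned cells gave 4 of 12, beside 9.70% of all genes, and only the groups compared 10 of 29, beside 12.1%. In Lrg1-/- mice (9 of 54) no filter gave 21 of 104, thinned cells 2 of 17 and only the groups compared 4 of 29, beside 7.58%, 9.11% and 10.2% of all genes. Between the sham groups (6 of 54) no filter gave 17 of 96, beside 9.21% of all genes, and clusters without balancing 11 of 51, beside 13.4%, while thinned cells gave 5 of 17, beside 6.92%, only the groups compared 7 of 30, beside 16.7%, and the replicate block 6 of 54, beside 4.64%. In each of these the share among the receptors exceeded that of all genes, unlike in the report. For the difference in effect (3 of 45) no filter gave 5 of 80, clusters without balancing 1 of 41 and thinned cells 0 of 12, beside 2.48%, 2.43% and 1.77% of all genes, with 2 pairs at an unadjusted p below 0.05 in edgeR. Leaving out a library gave 6 to 17, 4 to 12, 2 to 11, 5 to 8 and 0 to 3 calls in the same order. For surgery in Lrg1-/- mice, where 16.7% of receptor pairs were called beside 10.1% of all genes, the share among the receptors fell below that of all genes without sham + Lrg1-/- replicate 1 (3 of 54) or 2 (2 of 56) or MCAO/R + Lrg1-/- replicate 2 (3 of 50), each beside 6.47% to 6.72% of all genes. For the difference in effect it did so without sham + Lrg1-/- replicate 2 (0 beside 0.599%). With the replicate number as a block, 8 of 45 pairs were called after MCAO/R, beside 11.8% of all genes, and 0 of 45 for the difference in effect, beside 0.534%, with 10 at an unadjusted p below 0.05, while DESeq2 without the block called 3. Deviations of same-numbered libraries had correlations from -0.45 to 0.25, which cannot exclude pairing. No fold change of a called pair turned its direction. Beside the libraries named for single calls above, processing choices cost calls too. Calls kept and lost numbered 27 and 14 with clusters without balancing and 25 and 17 with the replicate block. They numbered 22 and 13 with only the groups compared and 12 and 6 with thinned cells. Few counts per library, in T cells, neutrophils and the pairs below 10 CPM above all, limit what these data can show.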

Other observations

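The unnamed cells also carried receptors. Ackr3 stood there at 99.8, 136 and 184 CPM in sham + WT mice, 87.1, 94.5 and 71.7 in sham + Lrg1-/- mice, 51.6 and 60.2 in MCAO/R + WT mice and 26.4, 45.0 and 15.6 in MCAO/R + Lrg1-/- mice. Ccr1 stood at 1.69, 7.69 and 1.73, at 5.06, 5.68 and 4.83, at 23.6 and 7.38 and at 8.13, 25.9 and 44.9 in the same order, with 2449 UMIs in MCAO/R + Lrg1-/- replicate 5. The unnamed cells differ in makeup between libraries, so no comparison was made.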
